A study of Mus musculus with 6 samples.

Results

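Chemokines are small secreted proteins that guide leukocytes, and chemokine receptors are the G protein-coupled receptors on the cells that follow them. The members described here were all probe sets of the array whose gene symbol was Ccl, Cxcl, Ccr, Cxcr or Ackr followed by a number, or Cx3cl1, Cx3cr1, Xcl1, Xcr1, Pf4 or Ppbp. These were 49 of 12422 probe sets, and they measured 44 of 8251 genes, 25 of ligands and 19 of receptors. No probe set was named Ppbp. Whole skin was taken 5 days after birth, from 3 samples of the GC13 line, whose transgene overexpresses the homeobox gene Hoxc13, and from 3 samples of FVB, an albino inbred strain. The labels used here name neither the construct that drives the transgene nor the strain background of the GC13 line, nor do they state that samples are separate mice. The p-values thus measure only the spread among 3 samples a group, possibly a technical one. Each sample was hybridised to 1 Affymetrix expression array, and a probe set is the group of short probes that measures 1 transcript. The level of Hoxc13 itself was not analysed here, since no probe set carried its name in the annotation.

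Chemokines fall into classes named for the spacing of their first cysteines: CC, CXC, CX3C and XC. Inflammatory ones are induced by cytokines such as tumour necrosis factor through NF-kappaB, while homeostatic ones are made at rest. In skin, keratinocytes, fibroblasts, endothelium and resident macrophages make ligands, and macrophages, dendritic cells, Langerhans cells, mast cells and T cells carry the receptors. Atypical receptors, named Ackr, bind chemokines and remove or display them without G protein signalling. In whole skin, fewer cells of a type and less RNA per cell cannot be told apart.

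Before the members are described, 1 array stands out, and the groups differ in a measure of RNA breakdown. The control probe sets at the 3' and 5' ends of Gapdh give a ratio that grows with RNA breakdown. On GC13 replicate 2 it was 9.58, while it was 2.22 and 2.19 on the other GC13 arrays and between 0.894 and 0.958 on the FVB arrays. The Y-linked gene Eif2s3y had 3.25, 143 and 4.60 on GC13 arrays 1, 2 and 3, against 69.4, 98.9 and 79.6 on the FVB arrays. Xist, the transcript of the inactive X chromosome, had 9.15, 1.07 and 12.6 on the GC13 arrays, against 9.95, 11.9 and 11.7 on the FVB arrays. The actin ratio was 1.26, 3.80 and 1.43 on the GC13 arrays, against 1.36, 1.26 and 1.16 on the FVB arrays. GC13 replicate 2 thus stood apart in all 4 measures, and GC13 replicates 1 and 3 lay near FVB in Xist and the actin ratio and apart from FVB in Eif2s3y and the Gapdh ratio. The part of RNA quality and of sex in the results was not tested. The arrays' summed intensities ran from 1640876 to 1736141 in GC13 and from 1626361 to 1644444 in FVB. With 3 arrays a group, precision was limited. Among markers of the labelled tissue, the epidermal genes Krt1, Flg and Lor were read well above the dim range (796 or more on every GC13 array, 709 or more on every FVB array), whereas the probe sets of Krt5, Krt14 and Krt15, keratins of the basal layer and the bulge, were among those left out as dim, with at most 14.2 on a GC13 array and 8.45 on an FVB array.

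Comparing GC13 with FVB asks whether added Hoxc13 went with a change in the leukocyte-guiding genes of skin. Only Cxcr3, the receptor of activated T cells and natural killer cells, rose past the threshold, a limma adjusted p of 0.05 over all 9316 probe sets tested. Cxcr3 was dim and passed the filter on dim probe sets only through GC13. Its call was lost when any array but GC13 replicate 2 was left out. Cxcl14, an epithelial chemokine made in resting skin, Ccl2, a monocyte attractant, Ccl6 and 1 of the probe sets of Cxcl1, a neutrophil attractant, had GC13 values that all exceeded the FVB values, without passing. Ccl8, a relative of Ccl2, was low on 2 GC13 arrays and within the FVB range on the third. Of the 49 probe sets 26 were bright enough to be tested, after the 25% of all probe sets with the lowest mean had been left out. Among these 26 the test called 1 higher and 0 lower. Of all probe sets tested 0.472% were called, 0.0859% higher and 0.386% lower in GC13. At an unadjusted p under 0.05 there were 5 of the 26, against 15.5% of all tested probe sets.

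The 26 were spread on both sides of 0. Their log2 fold changes, all GC13 minus FVB on the scale log2(intensity + 2) with each array centred on its median, ran from -1.29 to 1.57 with a median of 0.26, while the median over all 9316 was 0.08. Above 0 lay 20 of the 26 and below 0 lay 6, against 57.4% above 0 among all tested. For 8 of the 26, each GC13 intensity exceeded each FVB intensity, and for 0 each was lower. Those patterns were met by 10.6% and 12.3% of all tested probe sets. The 8 were Cxcr3, Cxcl14, Ccl2, Ccl6, Ccl9, Ccl12 and a probe set each of Cxcl1 and Cxcl12. Of these, Cxcr3 and the Cxcl1 probe set passed the filter on dim probe sets only through GC13, and 0 members passed it only through FVB. The filter thus favoured the higher side in these counts. Ligands had a median of 0.30 over 17 probe sets, and typical and atypical receptors together had 0.06 over 9. The receptor median without GC13 replicate 2 was -0.13, with 4 of 9 above 0, and the ligand median without that array was 0.24. With GC13 replicate 2 left out, the median of the 26 was 0.17 and 16 lay above 0.

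**Figure D1:**
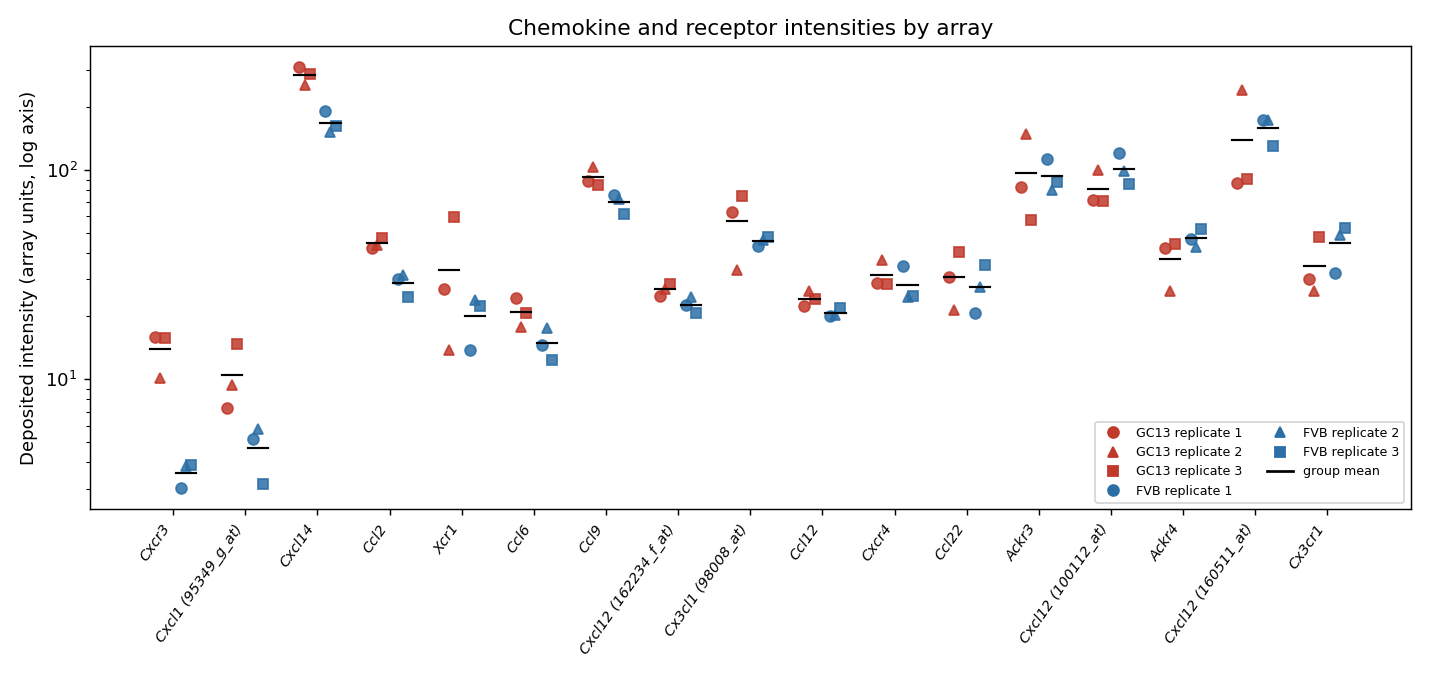
Deposited intensities on a log axis for 17 of the 26 tested probe sets (called, with separate groups and an unadjusted p under 0.05, or among the 14 brightest), in order of their log2 fold change, with GC13 (red) left of FVB (blue), a symbol for each replicate and a black line at each group mean. The GC13 points of Cxcr3, at 15.9, 10.1 and 15.8, lie above its FVB points, while GC13 replicate 2 parts from the other GC13 arrays for Xcr1, Cx3cl1, Ackr3 and Cxcl12.

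Cxcr3 (Entrez 12766, chromosome X) had intensities of 15.9, 10.1 and 15.8 on GC13 arrays 1, 2 and 3, against 3.02, 3.83 and 3.90 on the FVB arrays. All GC13 values were higher than all FVB values, and all were dim. Of all tested probe sets 10.6% were higher on every GC13 array and 12.3% lower. Of those left out as dim, 9.24% were higher and 2.38% lower in this way. The means of Cxcr3 were 13.9 ± 3.33 (SD, n = 3) in GC13 and 3.58 ± 0.49 (SD, n = 3) in FVB. On the centred scale log2(intensity + 2), Cxcr3 rose 2.96-fold, a log2 fold change of 1.57 with an SE of 0.20 (limma adjusted p = 0.0311). That is not the ratio of the deposited means, since the added 2 shrinks changes of dim probe sets. In FVB its mean lay below the level of the filter on dim probe sets, which corresponds to an intensity of 6.27, so that it entered the test only through GC13, as did 1 Cxcl1 probe set. It was also called without the filter. The call was lost when GC13 replicate 1 or 3 or any FVB array was left out, at limma adjusted p from 0.0918 to 0.252 and log2 fold changes from 1.49 to 1.60. It was kept without GC13 replicate 2, at 1.66 (limma adjusted p = 0.00514). With a pseudocount of 32, it shrank to 0.40.

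Cxcl9 and Cxcl10, ligands of Cxcr3 that are both induced by interferon gamma, were left out as dim. Cxcl9 had 3.45, 5.95 and 6.25 on the GC13 arrays, against 5.199, 4.03 and 5.27 on the FVB arrays. Cxcl10 had 7.42, 4.62 and 3.20 on the GC13 arrays, against 2.22, 4.54 and 2.41 on the FVB arrays. Both ligands thus overlapped between the groups. Of the T cell markers, 3 of the 10 genes with a probe set were tested (Thy1, Cd5 and Cd4) and 0 were called. Their summed intensity was 261 to 411 in GC13 and 184 to 206 in FVB. Thy1, which fibroblasts and nerve also express, made up most of that sum. Cd5 had 11.5, 7.08 and 9.87 in GC13 and 9.01, 4.22 and 6.23 in FVB. The T cell receptor subunits Cd3d, Cd3e and Cd3g were left out as dim, with 0.944 to 8.95 in GC13 and 0.883 to 4.68 in FVB. The natural killer list had 1 tested gene, Gzma, with 8.60, 5.48 and 13.0 in GC13 and 4.43, 7.33 and 5.10 in FVB. What part such cells had in the level of Cxcr3 was not tested.

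The windows around the transcription starts of 4 members are given to show the sequence upstream of the called gene (Cxcr3), of both CXC ligands with the clearest separation (Cxcl14 and Cxcl1) and of Ccl8, the tested member with the lowest log2 fold change. They come from RefSeq for build GRCm38.p6, which held 38 such windows for 36 of the 44 member genes, and each runs 5' to 3' on the gene's strand from 250 bases before to 50 bases after the annotated start. Capitals mark matches on either strand to GGG and TTCC with any 3 bases between them, a form of the NF-kappaB site, to TGANTCA, the AP-1 site, to TATAAA, the TATA box, or to TCGTAAA and CAATAAA, letters that posterior Hox proteins are known to bind in vitro.
Cxcr3, chrX:101734098-101734397, minus strand: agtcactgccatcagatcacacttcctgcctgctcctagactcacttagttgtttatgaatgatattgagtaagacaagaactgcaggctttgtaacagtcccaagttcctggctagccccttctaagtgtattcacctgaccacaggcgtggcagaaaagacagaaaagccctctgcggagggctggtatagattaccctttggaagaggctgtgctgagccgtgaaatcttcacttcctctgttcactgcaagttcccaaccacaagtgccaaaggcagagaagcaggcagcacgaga
Cxcl14, chr13:56296502-56296801, minus strand: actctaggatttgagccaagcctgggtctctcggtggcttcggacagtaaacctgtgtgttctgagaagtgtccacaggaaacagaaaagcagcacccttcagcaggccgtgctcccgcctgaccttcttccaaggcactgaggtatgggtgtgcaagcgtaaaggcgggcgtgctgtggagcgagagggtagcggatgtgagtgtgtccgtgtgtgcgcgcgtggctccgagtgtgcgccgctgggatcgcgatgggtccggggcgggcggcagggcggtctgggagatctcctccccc
Cxcl1, chr5:90890995-90891294, plus strand: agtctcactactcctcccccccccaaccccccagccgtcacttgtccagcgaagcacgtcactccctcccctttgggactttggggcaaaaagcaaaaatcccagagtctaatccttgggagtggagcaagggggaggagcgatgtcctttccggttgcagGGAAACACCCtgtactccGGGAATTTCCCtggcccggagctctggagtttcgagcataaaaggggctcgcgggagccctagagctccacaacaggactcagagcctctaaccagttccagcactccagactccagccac
Ccl8, chr11:82114935-82115234, plus strand: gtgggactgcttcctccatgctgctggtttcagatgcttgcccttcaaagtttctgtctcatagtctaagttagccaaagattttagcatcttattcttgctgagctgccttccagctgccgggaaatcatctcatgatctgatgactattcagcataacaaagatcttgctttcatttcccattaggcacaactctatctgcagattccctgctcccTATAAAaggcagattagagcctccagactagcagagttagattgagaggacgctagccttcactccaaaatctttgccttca

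The Cxcl1 window held the NF-kappaB form 3 times, as GGAAACACCC at position -89 on the minus strand and as the overlapping GGGAATTTCC at -71 and GGAATTTCCC at -70, where positions are counted from the annotated start. The Ccl8 window held a TATA box at -32. No match to any of the 5 motifs lay in the windows of Cxcr3 and Cxcl14, which says only that these letters are not there. The NF-kappaB form was in 7 of the 38 member windows and in 5.56% of all 32851 windows. The AP-1 site was in 6 of the 38 and in 7.81% of all. The letters TATAAA, counted on either strand at any position, were in 12 and in 13.6%, so not each is a TATA box near the start. Of the Hox letters, TCGTAAA was in 0 of the 38 and in 0.597% of all, and CAATAAA was in 1, that of Cxcl10, and in 4.6%. The 7 with the NF-kappaB form were Cxcl1, Cxcl2, Cxcl10, Ccl1, Ccl9, Ccr3 and Ccr6, of which Cxcl1, Ccl1 and Ccl9 had a tested probe set. Cxcl2 carries GGGAATTTCC too, at -97, and like Cxcl1 is on chromosome 5. A match is a description and not a bound site.

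Among the CXC ligands, none of 6 tested probe sets passed. Cxcl14 had 310.5, 254 and 287 on the GC13 arrays, against 191, 152 and 161 on the FVB arrays. Its groups did not overlap, and GC13 replicate 2 was the lowest of its group by little. The means were 284 ± 28.1 (SD, n = 3) in GC13 and 168 ± 20.4 (SD, n = 3) in FVB, and the log2 difference was 0.82 (SE 0.21) at a limma adjusted p of 0.14. Without GC13 replicate 2 the log2 fold change was 0.80 and the limma adjusted p was 0.0371, in a fit that called 14.8% of all probe sets. Over all alternatives it ran from 0.70 to 0.94 and passed in 2 of 18.

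Cxcl1, which draws neutrophils through Cxcr2, was read by 2 tested probe sets that disagreed. The one named 95349_g_at had 7.25, 9.39 and 14.8 on the GC13 arrays, against 5.18, 5.76 and 3.14 on the FVB arrays, giving 0.95 on the log2 scale (SE 0.28, limma adjusted p = 0.182). The other, 95348_at, had 7.20, 9.07 and 15.4 in GC13 and 7.07, 14.8 and 7.99996 in FVB, where the groups overlapped, and its log2 fold change was 0.15 (SE 0.31). The groups were thus separate on 95349_g_at and not on 95348_at. Cxcl2 and Cxcl5, further neutrophil attractants, were left out as dim. Cxcl5 had 3.11, 3.40 and 7.84 in GC13 and 0.642, 2.92 and 2.37 in FVB, so each GC13 value was higher. Their shared receptor Cxcr2 was left out too, with 6.82, 3.88 and 11.9 in GC13 and 2.98, 8.97 and 4.55 in FVB. The neutrophil list had 7 of 10 genes tested and 0 called, with 5 above 0 and a median log2 fold change of 0.53. Its summed intensity was 237 to 332 in GC13 and 252 to 311 in FVB. The 2 below 0 were S100a8 at -1.01 and S100a9 at -0.41. S100a8 had 46.1, 146 and 51.1 on GC13 arrays 1, 2 and 3, against 162, 139 and 155 on the FVB arrays.

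Cxcl12, a homeostatic ligand made by fibroblasts and endothelium that holds Cxcr4-bearing cells in place, was read by 3 tested probe sets. On 160511_at there were 86.6, 239.8 and 90.2 on GC13 arrays 1, 2 and 3, against 172, 174 and 131 on the FVB arrays. GC13 replicates 1 and 3 thus lay below all FVB arrays and replicate 2 above them. With all arrays the log2 fold change was -0.28 (SE 0.46). It was -0.85 (SE 0.19, limma adjusted p = 0.0362) without GC13 replicate 2. The probe set 100112_at had 72.1, 100.3 and 71.0 in GC13 and 120.2, 99.0 and 85.4 in FVB, with log2 fold changes of -0.25 on all arrays and -0.50 without GC13 replicate 2. The probe set 162234_f_at, whose suffix marks probes shared by a family of sequences, had 25.02, 26.9 and 28.6 in GC13 and 22.5, 24.6 and 20.7 in FVB, and its log2 fold change of 0.31 had the opposite sign.

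Receptors of Cxcl12 did not pass. Cxcr4 had 28.8, 37.3 and 28.6 on the GC13 arrays, against 34.9, 24.8 and 24.9 on the FVB arrays, and the groups overlapped. Its log2 fold change was 0.23 (SE 0.27). Ackr3, the atypical receptor that removes Cxcl12, had 82.7, 148 and 57.5 on the GC13 arrays, against 113, 80.04 and 87.2 on the FVB arrays. GC13 replicate 2 was the highest of all 6 arrays, as it was for 160511_at of Cxcl12. The log2 fold change of Ackr3 was 0.02 with all arrays and -0.43 without GC13 replicate 2, neither past the threshold, and it was also below 0 (-0.05) when the arrays were not centred.

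**Figure D2:**
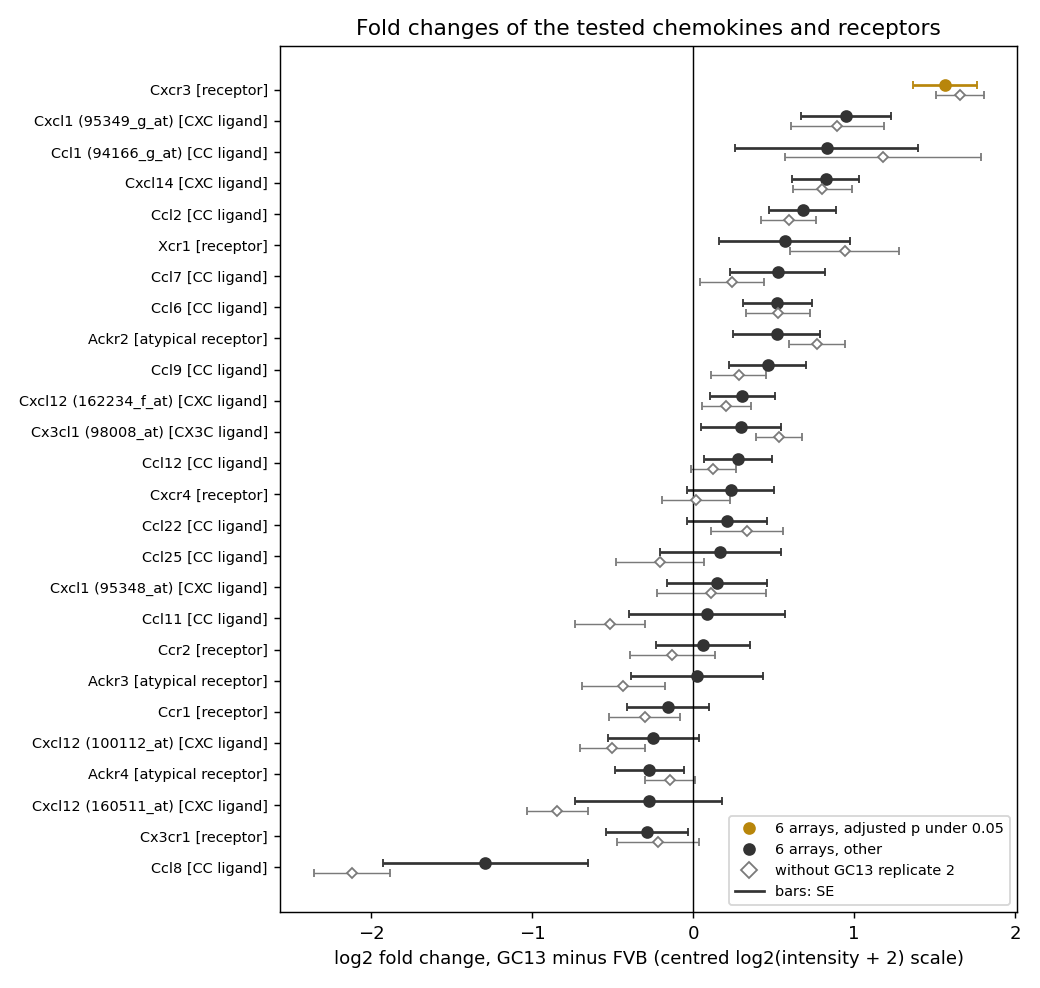
Log2 fold changes, GC13 minus FVB, of the 26 tested probe sets from all 6 arrays (filled circles, gold where the limma adjusted p was under 0.05) and without GC13 replicate 2 (open diamonds), with SE bars and the class of each gene in brackets. Cxcr3 alone is gold, at 1.57, and Ccl8 lies lowest, at -1.29 with all arrays and -2.12 without GC13 replicate 2.

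CC ligands were the largest class, with 15 probe sets, of which 10 were tested and 0 called. On chromosome 11, Ccl2, Ccl7, Ccl11, Ccl12, Ccl8 and Ccl1 are direct neighbours, the monocyte chemoattractant and eotaxin cluster, and Ccl5, Ccl9, Ccl6, Ccl3 and Ccl4 form a second run. Over the 8 tested probe sets of both runs the median log2 fold change was 0.49, with 7 above 0 and Ccl8 below. It was 0.26 without GC13 replicate 2, with 6 above 0. Ccl2 had 42.6, 44.0 and 47.5 on the GC13 arrays, against 30.2, 31.5 and 24.7 on the FVB arrays. No GC13 value reached down to the FVB range, and the GC13 arrays were alike. The means were 44.7 ± 2.56 (SD, n = 3) in GC13 and 28.8 ± 3.64 (SD, n = 3) in FVB, and the log2 difference was 0.68 (SE 0.21) at a limma adjusted p of 0.198. Without GC13 replicate 2 it was 0.59 (limma adjusted p = 0.0625). Ccl12, like Ccl2 a ligand of Ccr2, had 22.4, 26.3 and 24.1 in GC13 and 20.1, 20.2 and 21.9 in FVB. Its groups did not overlap, though they nearly touched, and the log2 fold change was 0.28 (SE 0.21). Ccl7, a further ligand of Ccr2, had 17.2, 23.1 and 13.0 in GC13 and 11.6, 14.05 and 10.9 in FVB, a log2 fold change of 0.52 (SE 0.30).

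Ccl8, which in mice is a ligand of Ccr8, had 5.16, 28.3 and 4.12 on GC13 arrays 1, 2 and 3, against 27.2, 20.2 and 33.2 on the FVB arrays. GC13 replicates 1 and 3 lay far below the FVB range and replicate 2 within it. The log2 fold change was -1.29 (SE 0.64, limma adjusted p = 0.377) with all arrays and -2.12 (SE 0.24, limma adjusted p = 0.00762) without GC13 replicate 2. Ccl11, or eotaxin, which attracts eosinophils through Ccr3, had 10.4, 43.9 and 18.6 in GC13 and 21.9, 20.4 and 19.3 in FVB. Here GC13 replicates 1 and 3 lay below all FVB arrays, replicate 3 narrowly, and replicate 2 lay above them. The log2 fold change of Ccl11 was 0.09 (SE 0.49) with all arrays and -0.52 (SE 0.22, limma adjusted p = 0.146) without GC13 replicate 2. Ccl1, the other ligand of Ccr8, had 29.0, 9.97 and 27.4 in GC13 and 8.05, 4.88 and 30.7 in FVB on 94166_g_at, so the groups overlapped widely. The second Ccl1 probe set was left out as dim.

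From the second run, Ccl9 and Ccl6, mouse ligands of Ccr1 made by macrophages and other myeloid cells, were tested. Ccl9 had 88.8, 104 and 85.1 on the GC13 arrays, against 76.1, 72.9 and 61.7 on the FVB arrays, or 0.46 higher on the log2 scale (SE 0.24, limma adjusted p = 0.396). Ccl6 had 24.5, 17.8 and 20.6 in GC13 and 14.6, 17.5 and 12.4 in FVB, or 0.52 higher (SE 0.22, limma adjusted p = 0.305). Both were higher on every GC13 array, Ccl6 by a narrow gap. Ccl3, Ccl4 and Ccl5, classical inflammatory ligands, were left out as dim, with no intensity above 10.6 in GC13 or above 5.08 in FVB. Outside chromosome 11, Ccl22, a dendritic cell product that attracts Ccr4-bearing T cells, had 30.9, 21.5 and 40.3 in GC13 and 20.6, 27.5 and 35.04 in FVB, where the groups overlapped. Ccl25, a ligand of Ccr9, had 8.96, 13.5 and 4.86 in GC13 and 8.41, 9.17 and 6.21 in FVB. Ccl17, the partner of Ccl22, was left out as dim.

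Receptors of the CC ligands showed no call. Ccr2, which brings monocytes to tissue, had 14.1, 15.6 and 10.9 on the GC13 arrays, against 17.4, 14.02 and 9.95 on the FVB arrays, a log2 fold change of 0.06 (SE 0.29). Ccr1 had 7.90, 12.01 and 14.1 in GC13 and 14.8, 12.004 and 13.3 in FVB, a log2 fold change of -0.16 (SE 0.25). Both receptors overlapped between the groups. Ackr2, which clears inflammatory CC chemokines and is known from lymphatic endothelium, had 20.4, 10.8 and 28.9 in GC13 and 12.2, 12.6 and 14.9 in FVB. In deposited intensity, GC13 replicates 1 and 3 lay above all FVB arrays and replicate 2 below them. After centring, replicate 2 was 0.016 above the FVB mean on the log2 scale. The log2 fold change of Ackr2 was 0.52 (SE 0.27) with all arrays and 0.77 (SE 0.17, limma adjusted p = 0.0366) without GC13 replicate 2. Ackr4, which clears Ccl19, Ccl21 and Ccl25, had 42.2, 26.3 and 44.1 in GC13 and 46.9, 42.7 and 52.2 in FVB, a log2 fold change of -0.27 (SE 0.21).

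Of the CX3C and XC pairs, 3 genes were tested and 0 called. Cx3cl1, a chemokine tethered to the membrane, had 62.7, 33.2 and 74.7 on the GC13 arrays, against 43.5, 46.4 and 47.7 on the FVB arrays, on 98008_at. Its receptor Cx3cr1, carried by monocytes and resident macrophages, had 30.2, 26.3 and 47.7 in GC13 and 32.3, 49.0 and 52.9 in FVB, a log2 fold change of -0.29 (SE 0.26). Xcr1, the receptor of cross-presenting dendritic cells, had 26.9, 13.8 and 59.5 in GC13 and 13.9, 24.0 and 22.4 in FVB. For Cx3cl1 and Xcr1, the deposited intensities of GC13 replicates 1 and 3 lay above all FVB arrays and that of replicate 2 below them, for Xcr1 barely. After centring, replicate 2 was 0.18 below the FVB mean on the log2 scale for each gene, which for Xcr1 was within the FVB range. The log2 fold changes were 0.30 (SE 0.25) for Cx3cl1 and 0.57 (SE 0.41) for Xcr1 with all arrays, and 0.53 and 0.94 without GC13 replicate 2, where neither passed. Xcl1, the ligand of Xcr1, was left out as dim.

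**Figure D3:**
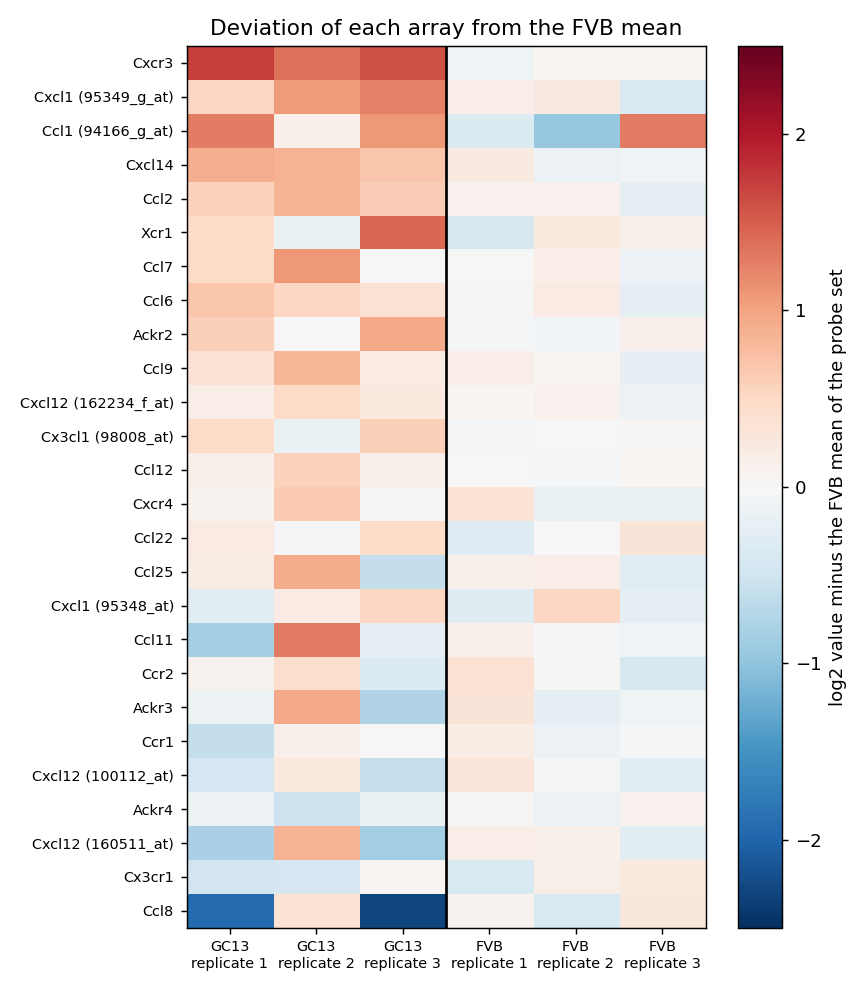
Colour shows, for each of the 26 tested probe sets (down the page, by log2 fold change) and each array (GC13 left, FVB right), the centred log2 value minus the mean of the FVB arrays. GC13 replicate 2 differs in colour from GC13 replicates 1 and 3 for Ccl8, Ccl11, Ackr3 and 160511_at of Cxcl12, and all GC13 arrays are red for Cxcr3, Cxcl14 and Ccl2.

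For 7 of the 26 tested probe sets, GC13 replicates 1 and 3 lay on the same side of all FVB arrays while replicate 2 did not join them, in deposited intensity before centring. The same split was met by 32.3% of all 9316 tested probe sets, a larger share than among the members. They were Ccl8, Ccl11, Cx3cl1, Ackr2, Xcr1 and 2 probe sets of Cxcl12. Without GC13 replicate 2, 3 members were called higher (Cxcr3, Cxcl14 and Ackr2) and 2 lower (Ccl8 and 160511_at of Cxcl12), in a fit that called 6% of all tested probe sets higher and 8.8% lower. With array weights, which gave GC13 replicates 2 and 3 the lowest weights, 13 members were called, 8 higher and 5 lower, where 41.3% of all tested probe sets were called, 22% higher in GC13 and 19.3% lower. Relative to the FVB mean, the 26 had a median of 0.18, 0.51 and 0.16 on GC13 arrays 1, 2 and 3, and all 9316 had 0.07, 0.21 and -0.02. GC13 replicate 2 had the highest Gapdh ratio and, of the GC13 arrays, the highest Eif2s3y, and the part of RNA quality or sex in the split was not tested.

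The 23 members left out as dim had intensities from 0.545 upwards, with at most 18.9 in GC13 and 14.3 in FVB. They held 10 of 19 receptors and 13 ligand probe sets, among them Ccr3, Ccr4, Ccr6, Ccr7, Ccr8, Ccr9, Cxcr5, Cxcl13 and Pf4. For 3 of the 23 each GC13 intensity was higher than each FVB intensity, and for 0 it was lower. Among all 3106 probe sets left out, 9.24% were higher and 2.38% lower in this way. The 3 were Ackr1, Cxcl5 and Ccr7. Ackr1, the atypical receptor of venule endothelium and red cells, had 18.9, 9.30 and 5.47 in GC13 and 2.91, 3.04 and 1.18 in FVB. Ccr7, which guides dendritic cells to lymph nodes, had 7.88, 2.46 and 1.74 in GC13 and 0.829, 1.32 and 1.61 in FVB. The endothelial list had 9 of 9 genes tested and 0 called, with summed intensities of 959 to 1217 in GC13 and 687 to 810 in FVB, and its part in the level of Ackr1 was not tested. A further 4 probe sets list several near-identical gene copies with a chemokine among them and stayed unnamed, and their log2 fold changes ran from -0.21 to 0.31 with 0 called.

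**Figure D4:**
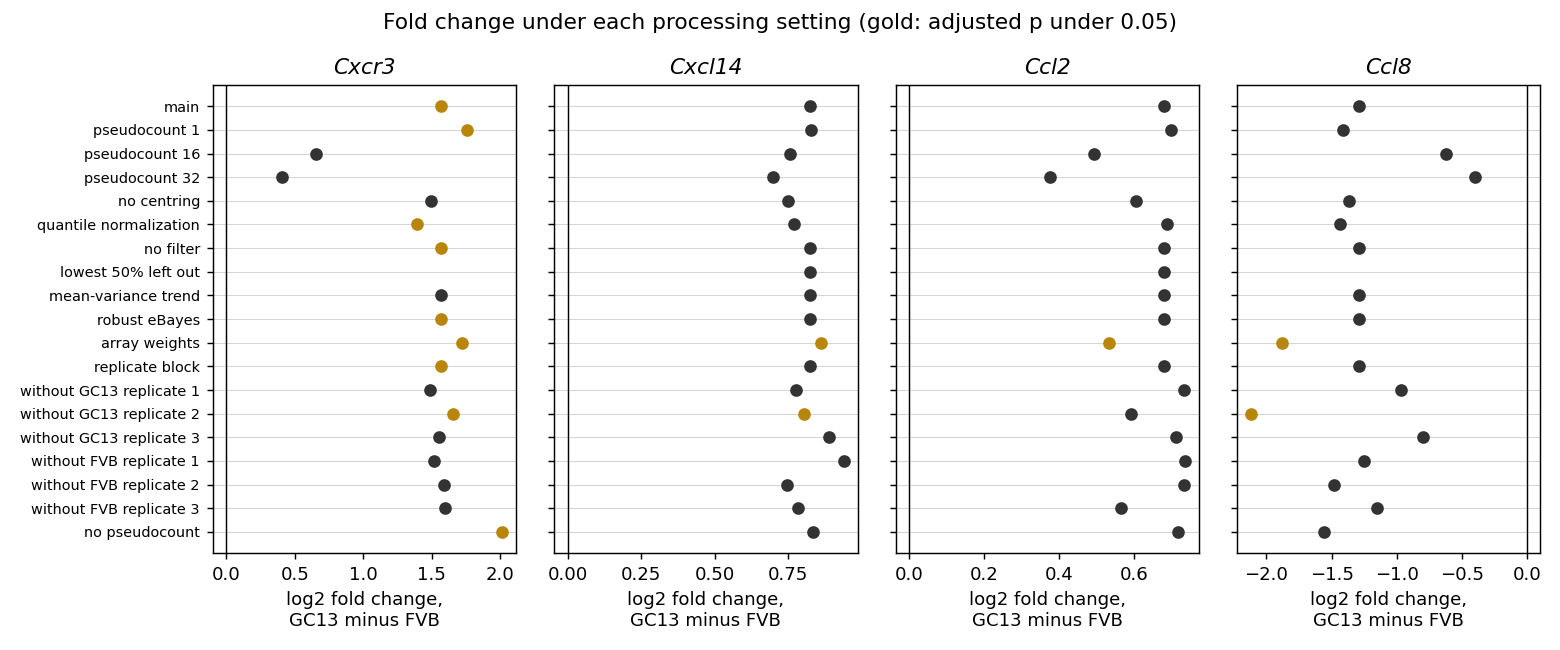
Log2 fold change, GC13 minus FVB, of 4 members under the setting reported (top row, main) and each alternative (rows), gold where the limma adjusted p was under 0.05. Cxcr3 lies right of 0 throughout and is gold in 8 of 17 alternatives, while Ccl8 lies left of 0 throughout and is gold in 2 of 17.

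Genes that work before and after the receptors held no call either. Of 29 listed inducers of chemokines and their receptors, 23 had a probe set and 17 were tested, with 9 above 0 and a median of 0.10. The interferon gamma receptor chain Ifngr2 had 27.0, 27.2 and 28.2 on the GC13 arrays, against 72.2, 60.8 and 68.1 on the FVB arrays, which gave -1.15 on the log2 scale (SE 0.20, limma adjusted p = 0.0681). Ifngr1, the other chain, had 26.9, 51.5 and 50.5 in GC13 and 75.9, 75.0 and 77.7 in FVB, which gave -0.78 (SE 0.30, limma adjusted p = 0.278). All GC13 values of both chains lay below the FVB values, and neither passed. Without GC13 replicate 2 they passed, at -1.24 (limma adjusted p = 0.0105) for Ifngr2 and -1.03 (limma adjusted p = 0.0382) for Ifngr1. On this list and the lists of the next paragraph together, that fit called 9 of 67 tested genes, 2 higher and 7 lower. It called 14.8% of all tested probe sets, 6% higher and 8.8% lower. The cytokines Tnf, Il1b, Il6, Il17a, Ifng and Ifnb1 were all left out as dim, with at most 8.57 in GC13 and 6.38 in FVB.

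Among 40 listed genes of receptor signalling, 25 had a probe set and 24 were tested, with 15 above 0 and a median of 0.19. Gnb2, a beta subunit of the G proteins that chemokine receptors use, had 479.7, 114 and 419 on the GC13 arrays, against 834, 803 and 849 on the FVB arrays (limma adjusted p = 0.191). Gnb1, the related subunit, had 886, 602 and 734 in GC13 and 521, 490 and 526 in FVB (limma adjusted p = 0.238). These subunits thus lay apart from FVB in opposite directions on all GC13 arrays, without passing. Gnb2 passed when GC13 replicate 2 was left out, at -0.91 on the log2 scale (limma adjusted p = 0.0214), against -1.46 with all arrays. The fit without that array called 14.8% of all tested probe sets. Among 20 genes that bind, cut or present chemokines, 15 were tested with a median of 0.21. Ccrl2, a receptor-like protein that binds chemerin, had 24.3, 13.3 and 24.96 in GC13 and 11.2, 11.5 and 15.4 in FVB, and passed without GC13 replicate 2 (limma adjusted p = 0.0298). Sdc1, the heparan sulphate proteoglycan syndecan 1 that holds chemokines at cell surfaces, had 201, 168 and 182 in GC13 and 274, 267 and 275 in FVB, which gave -0.49 on the log2 scale (SE 0.19, limma adjusted p = 0.289). Leukocyte adhesion genes had 11 of 16 tested and a median of 0.10, or 0.30 without GC13 replicate 2. Cd44, the hyaluronan receptor, had 8.93, 14.7 and 12.1 in GC13 and 20.1, 21.3 and 22.4 in FVB (limma adjusted p = 0.261, and 0.0185 without GC13 replicate 2).

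Of 86 tested markers of the cells that make or carry chemokines and of other skin cells, 0 were called by limma in the fit reported. Without GC13 replicate 2, 20 of the 86 were called, 13 higher and 7 lower. That fit called 14.8% of all tested probe sets, 6% higher and 8.8% lower. Among the 20 were Krt1, Flg and the mast cell protease Tpsb2 higher and C1qa and Lyz2 lower. With array weights 51 of the 86 were called, in a fit that called 41.3% of all tested probe sets. The macrophage and monocyte list had 11 of 12 genes tested, 6 above 0 and a median of 0.07, with summed intensities of 701 to 788 in GC13 and 749 to 811 in FVB. C1qa, a complement gene of macrophages, had 31.8, 8.12 and 18.4 in GC13 and 65.1, 67.1 and 83.6 in FVB (limma adjusted p = 0.0819). Adgre1, which encodes the macrophage antigen F4/80, had 22.5, 25.8 and 21.7 in GC13 and 13.6, 8.83 and 20.7 in FVB, so markers of the same cells lay on both sides of FVB. The dendritic and Langerhans cell list had 7 genes tested, 6 above 0, with a median of 0.55. Its summed intensity was 480 to 623 in GC13 and 498 to 523 in FVB. H2-Ab1, its gene of smallest p, was lower on every GC13 array, at 75.6, 66.4 and 76.8 against 132, 127 and 113 in FVB. That gave -0.68 on the log2 scale (limma adjusted p = 0.181). Mast cell genes had 6 tested with a median of 0.53 and summed to 1283 to 1926 in GC13 and 992 to 1072 in FVB. Fibroblast genes summed to 9291 to 11343 in GC13 and 7595 to 8293 in FVB, and keratinocyte genes to 6263 to 10625 in GC13 and 5742 to 5970 in FVB. The lymphatic endothelial sums were 138 to 182 in GC13 and 119 to 124 in FVB. Sums were also higher on every GC13 array for skeletal muscle genes, at 2479 to 2764 in GC13 and 2278 to 2412 in FVB, and for adipocyte genes, at 2332 to 2832 in GC13 and 1885 to 1965 in FVB. Melanocyte genes went the other way, at 519 to 808 in GC13 and 993 to 1061 in FVB, and the B cell and platelet sums overlapped. The T cell, mast cell, endothelial, lymphatic, fibroblast, keratinocyte, skeletal muscle and adipocyte sums were thus higher on every GC13 array. So were Cxcl14, Ccl2 and Cxcr3. Such sums rest mostly on the brightest genes. Log2 fold changes lay above 0 for 5 of 6 mast cell, 7 of 9 endothelial, 3 of 3 lymphatic, 6 of 7 fibroblast and 6 of 6 keratinocyte genes. They also did for 3 of 3 T cell, 6 of 8 skeletal muscle and 4 of 5 adipocyte genes. Endothelial Cldn5 was lower on every GC13 array, at 101, 61.9 and 83.6 against 127, 140 and 135 in FVB. The part of these cells in the chemokine levels was not tested.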

How the data were processed

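Total RNA of 6 mouse skin samples was measured on single-colour Affymetrix arrays. The deposited values are intensities on a linear scale, 1 per probe set and array, all above 0. The authors' software and background correction: not given in the sources used here. Trimmed by 2% at each end, every array's deposited intensities average 100, so they were scaled before deposit.

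The 66 control probe sets were left out and the other 12422 set as log2(intensity + 2), where 2 is the 10th percentile rounded. Array medians differed by 0.345, over the limit of 0.2, so arrays were median-centred. The 25% with the lowest mean were left out, leaving 9316. A fold change on this scale understates changes of dim probe sets. The groups were compared with limma 3.58.1 (lmFit and eBayes; R 4.3.3) as GC13 minus FVB, two-sided, at a threshold of 0.05 after Benjamini-Hochberg adjustment across the 9316 tested. The fit was tested on simulated data.

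Names came from the platform annotation, updated by Entrez identifier through RefSeq (GRCm38.p6), which no member's symbol needed. Neighbourhood and chromosome came from the same table, and promoter windows from RefSeq. Members and lists were chosen with earlier results of these data known. Array values are given for members past the threshold, those with separate groups and an unadjusted p under 0.05, and the 14 brightest tested, and up to 4 genes with the smallest p per other list. Other members and the genes Krt1, Flg, Lor, Krt5, Krt14, Krt15, Eif2s3y, S100a8, S100a9 and the Cd3 genes were named after their values were seen.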

Additional observations from a re-analysis of the deposited data

How the results depend on the processing

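Of the 18 alternatives, 1, the fit with no pseudocount, was chosen after seeing the data. The count of called probe sets, 44 as reported, was 83 with a pseudocount of 16, 119 with 32, 22 with no pseudocount, 28 without centring, 23 with the lowest 50% left out and 3850 with array weights. The number of members called, 1 as reported, was 0 with a pseudocount of 16 or 32, without centring, with the lowest 50% left out and with a mean-variance trend, and 13 with array weights, which called 41.3% of all probe sets. Leaving out 1 array gave 0 to 1379 called probe sets and 0 to 5 called members, both highest without GC13 replicate 2. Without centring the limma adjusted p of Cxcr3 was 0.0591, and with the trend 0.0729. With the lowest 50% left out, 17 of the 26 members had no value, Cxcr3 among them, and the median of the other 9 was 0.024. The replicate block gave 78 called probe sets and 1 called member, Cxcr3. Same-numbered arrays had correlations of their deviations from the group means of -0.07, 0.18 and 0.36, so the numbers were not taken to pair the samples.

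Of 451 log2 fold changes of members under an alternative, 21 had the opposite sign, over 7 probe sets. Without centring these were Ackr3 at -0.049 and Ccr2 at -0.011. With quantile normalization they were Ccl11 at -0.013, Ccl25 at -0.015, Ackr3 at -0.0084 and Ccr2 at -0.058. With array weights they were Ccl11 at -0.77 (limma adjusted p = 0.0177), 95348_at of Cxcl1 at -0.23, Ackr3 at -0.19 and Ccr2 at -0.037. When 1 array was left out the range was -0.52 to 0.54 for Ccl11, -0.21 to 0.55 for Ccl25, -0.43 to 0.41 for Ackr3, -0.14 to 0.27 for Ccr2, -0.30 to 0.065 for Ccr1, -0.039 to 0.41 for 95348_at of Cxcl1 and -0.85 to 0.023 for 160511_at of Cxcl12. The cause was not tested. With no detection calls, signal over background is unknown, and this limits Cxcr3 and the other dim members most.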
